A study of Mus musculus with 18 samples.

Results

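Of the 30905 genes counted in single nuclei of the mouse hippocampus (Hip) and prefrontal cortex (PFC), 8 that encode surface or secreted proteins of resting microglia are described here, chosen by their symbols: Selplg, Tmem119, Siglech, Fcrls and Gpr34 at the cell surface, and Olfml3, Cst3 and Sparc among the secreted proteins. They, and the gene lists set beside them, were chosen with earlier results of these data known. Counts of calls among them therefore do not test them as a set. The study asked how the gut microbiome acts on brain cells and compared 9 male Kun Ming mice, an outbred stock, killed at 8 weeks of age. Of these, 3 were germ-free (GF), raised in isolators without microbes, 3 were specific-pathogen-free (SPF) with an ordinary microbiota, and 3 were colonized germ-free (CGF) mice, which were born germ-free and shared a cage with SPF mice from 4 weeks of age for the next 4 weeks. The labels name no transgene or engineered allele in any group. Hip and PFC of each mouse gave 1 library each, 18 in all, so the replicate was the mouse (n = 3 per group) and the 2 regions of a mouse were not independent. GF and CGF mice both lacked microbes until 4 weeks of age, and CGF mice were caged 4 to each SPF mouse, so that mice of this group could share a cage.

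Microglia are the resident macrophages of the brain. Under resting conditions they carry a set of surface receptors and secreted proteins that sets them apart from other brain cells and, for several of these, also from the macrophages at the brain's borders (meninges, perivascular spaces and choroid plexus). Many of these genes are known to depend on transforming growth factor beta signalling and to fall when microglia become activated.

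Microglia were picked by marker genes that left out all 8 described genes (Csf1r, Ctss, C1qa and others), and border macrophages were separated within the same gate by Mrc1, F13a1 and other border markers, which gave 4160 microglial and 155 border macrophage nuclei among 138000 nuclei kept. The microglia numbered 677 and 988 in Hip and PFC of GF mice, 878 and 520 in SPF mice, and 625 and 472 in CGF mice. When all nuclei of a region were clustered without the 8 genes, 97.9 to 98.5% of the microglia of each group fell in 1 myeloid cluster in Hip. In PFC they fell in 2 by group, with 94.1% of GF microglia in cluster 11 and 97.5% of SPF and 91.7% of CGF microglia in cluster 10, of whose nuclei the gate took 96.3% and 63.4%, so that values of PFC microglia compare nuclei of different clusters. With the nuclei of both clusters taken as microglia in PFC, and of the 1 in Hip, 5 and 6 of the 8 genes were called in GF vs SPF, as with the gate. The shares of all genes called with clusters are not given here. Counts of unique molecules (UMIs) were summed per library over the microglia, and levels are given in counts-per-million units (CPM) of those sums. The name of the group held in these data for Selplg, Tmem119, Siglech, Olfml3 and Gpr34, which were higher in microglia than in every other type compared, whereas Fcrls did not pass against border macrophages, and Cst3 and Sparc were also abundant in other types.

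On the GRCm38 assembly, Selplg (chr5:113818536-113832644) and Tmem119 (chr5:113793729-113800516) lay 18020 bp apart on the minus strand of one chromosome. Siglech lay at chr7:55768178-55778925 on the plus strand, Fcrls at chr3:87250758-87263738, Olfml3 at chr3:103722222-103738001, Cst3 at chr2:148871722-148875692 and Sparc at chr11:55394500-55423183, the last 4 on the minus strand. Gpr34 (chrX:13632089-13640858, plus strand) sat within the span of Cask, a gene read from the opposite strand, and since the sources used here do not say whether counting used strand, Gpr34 and Cask molecules could have been mixed. All 8 genes were short, from 3971 bp (Cst3) to 28684 bp (Sparc).

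The stretch just before the start of a gene is shown for the secreted protein with the largest group difference (Cst3), for the secreted one next in size of GF vs SPF difference in Hip (Olfml3), and for a surface receptor whose GF vs SPF difference itself differed between regions (Siglech). The bases come from RefSeq's GRCm38.p6 promoters, which held 5 of the 8 genes, are written on the gene's strand, 5′ to 3′, and were trimmed to bases outside annotated exons. Capitals mark GAGGAA, the core of the site bound by PU.1, the factor that sets the myeloid lineage.
Cst3, chr2:148875693-148875762, minus strand: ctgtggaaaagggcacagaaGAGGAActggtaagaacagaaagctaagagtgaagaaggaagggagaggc
Olfml3, chr3:103738002-103738251, minus strand: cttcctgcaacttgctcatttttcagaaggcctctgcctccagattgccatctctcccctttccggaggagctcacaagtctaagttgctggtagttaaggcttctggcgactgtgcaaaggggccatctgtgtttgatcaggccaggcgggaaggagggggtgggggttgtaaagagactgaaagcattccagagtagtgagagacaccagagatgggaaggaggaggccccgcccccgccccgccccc
Siglech, chr7:55767934-55768177, plus strand: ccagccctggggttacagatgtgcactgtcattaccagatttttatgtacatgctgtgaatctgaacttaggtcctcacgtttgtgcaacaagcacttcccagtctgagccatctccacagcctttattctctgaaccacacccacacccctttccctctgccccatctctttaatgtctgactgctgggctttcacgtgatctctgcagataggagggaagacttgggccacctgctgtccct
On both strands, GAGGAA matched 1 time in the 70 bases before Cst3, where 6.99% of all promoters hold it in a stretch of that length, and 0 times in the 250 bases before Olfml3 and the 244 before Siglech, where 23.3% and 22.7% of promoters hold it. The AP-1 motif TGANTCA matched none of the 3 stretches, where 1.76%, 6.75% and 6.66% of promoters hold it. A match describes letters only.

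The libraries held 20336250 to 71463928 UMIs, and in PFC depth moved with the groups, at 59126586 to 71463928 UMIs in GF and 20336250 to 26949210 UMIs in SPF and CGF. In microglia the median nucleus held 1551 to 2245 UMIs in Hip, 1490.5 to 1670 in PFC of GF mice, and 638 to 789 in PFC of SPF and CGF mice. Mitochondrial UMIs made up 0.645 to 1.10% of a library in Hip of GF mice and 0.0770 to 0.471% in the others, while in PFC they made up 0.359 to 0.594% in GF and 1.28 to 3.22% in the others. Gm42418, which overlaps ribosomal RNA, took 0.0620 to 0.0835% of the microglial UMIs in Hip of GF mice and 0.222 to 0.494% in the others, and 3.78 to 9.59% of the microglial UMIs in PFC of SPF and CGF mice and 0.0414 to 0.0642% in GF. Of 137458 distinct barcodes, 2437 occurred in 2 or more libraries. GF libraries thus stood apart from both other groups in mitochondrial share and Gm42418 in both regions, and in depth in PFC, whose part in the differences below was not tested.

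Which cells carried the 8 genes was asked by comparing microglia with each other type of the same libraries, 11 types in Hip and 8 in PFC (edgeR's quasi-likelihood test with Benjamini-Hochberg adjustment, with the library as a block). Selplg, the ligand of P-selectin, Tmem119, a membrane protein of uncertain function used as a microglial marker, Siglech, a sialic-acid-binding lectin, Gpr34, a lysophosphatidylserine receptor, and Olfml3, a secreted olfactomedin-domain protein, were each higher in microglia than in 11 of 11 Hip types and 8 of 8 PFC types. Fcrls, an Fc receptor-like protein with a scavenger domain, was higher than in 10 of 11 Hip types, border macrophages being the exception, and than in 8 of 8 PFC types. Border macrophages were not among the 8 PFC types, since only the 3 GF libraries there held at least 10 of them. In those libraries they held 232 to 617 CPM of Fcrls, overlapping the 318 to 547 CPM of GF microglia by effective library size. Of all genes in Hip, 10.4% were called higher in microglia than in border macrophages, 18.9% than in mural cells, 20% than in fibroblasts, 20.1% than in oligodendrocytes, 21.3% than in endothelial cells, 23.2% than in astrocytes, 25.2% than in ependymal cells, 27.8% than in oligodendrocyte precursors (OPC), 29.3% than in choroid plexus, 34.7% than in excitatory neurons and 34.9% than in interneurons. In PFC the shares were 15.9% for mural cells, 18.4% for fibroblasts, 18.6% for endothelial cells, 19.4% for oligodendrocytes, 20.5% for astrocytes, 22.5% for OPC, 30.6% for interneurons and 32.7% for excitatory neurons. Outside the myeloid gate the median level of these 6 genes was at most 13.1 CPM in any type and region.

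Cst3, which encodes cystatin C, a secreted inhibitor of cathepsins, was broadly distributed. The order of the types differed between groups. In Hip of GF mice it ran from 3918 to 4346 CPM in astrocytes, 3396 to 4017 CPM in microglia, 1974 to 2897 CPM in mural cells, 1817 to 2091 CPM in endothelial cells and 295 to 458 CPM in excitatory neurons. In Hip of SPF mice it ran from 865 to 1049 CPM in microglia, 666 to 931 CPM in endothelial cells, 650 to 775 CPM in astrocytes, 447 to 681 CPM in mural cells and 97.5 to 169 CPM in excitatory neurons. Astrocytes and microglia thus stood above endothelial cells without overlap in GF. In SPF microglia stood above astrocytes without overlap, and the endothelial range overlapped both. Over all libraries, microglia did not pass the test against astrocytes (log2 difference -0.11, SE 0.14, adjusted p = 0.516) or endothelial cells (0.18, SE 0.14, adjusted p = 0.311), while they were higher than in the other 9 types. In PFC microglia (median 922 CPM, range 601 to 5565) exceeded all 8 types compared, astrocytes by 0.80 on the log2 scale (SE 0.17, adjusted p = 2.78e-05). Border macrophages were not among these 8 types.

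Sparc, a secreted matrix-binding glycoprotein, had its highest median in endothelial cells in both regions, with the groups pooled. In PFC the median of mural cells (129 CPM) lay below that of microglia (237 CPM). In Hip the median was 950 CPM in endothelial cells (419 to 1557), 465 CPM in mural cells (355 to 625), 314 CPM in microglia (152 to 371), 122 CPM in ependymal cells and 49.9 CPM in astrocytes. Microglia were lower than endothelial cells by a log2 difference of -1.76 (SE 0.15, adjusted p = 3.76e-19) and than mural cells by -0.62 (SE 0.18, adjusted p = 0.00281), and higher than the other 9 types, where 24.7% of all genes were called lower than in endothelial and 17.9% lower than in mural cells. In PFC they were lower than endothelial cells (-0.78, SE 0.16, adjusted p = 1.61e-05, where 20.6% of all genes were lower), did not pass against mural cells (0.16, SE 0.19, adjusted p = 0.588), and were higher than in the other 6. In PFC of GF mice endothelial cells held 861 to 906 CPM, and microglia 407 to 528 CPM by effective library size. The ranges overlapped in SPF (152 to 334 and 193 to 252 CPM) and in CGF (172 to 335 and 188 to 322 CPM). The plot of levels by type shows the 6 restricted genes beside the broad distribution of Cst3 and Sparc.

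**Figure D1:**
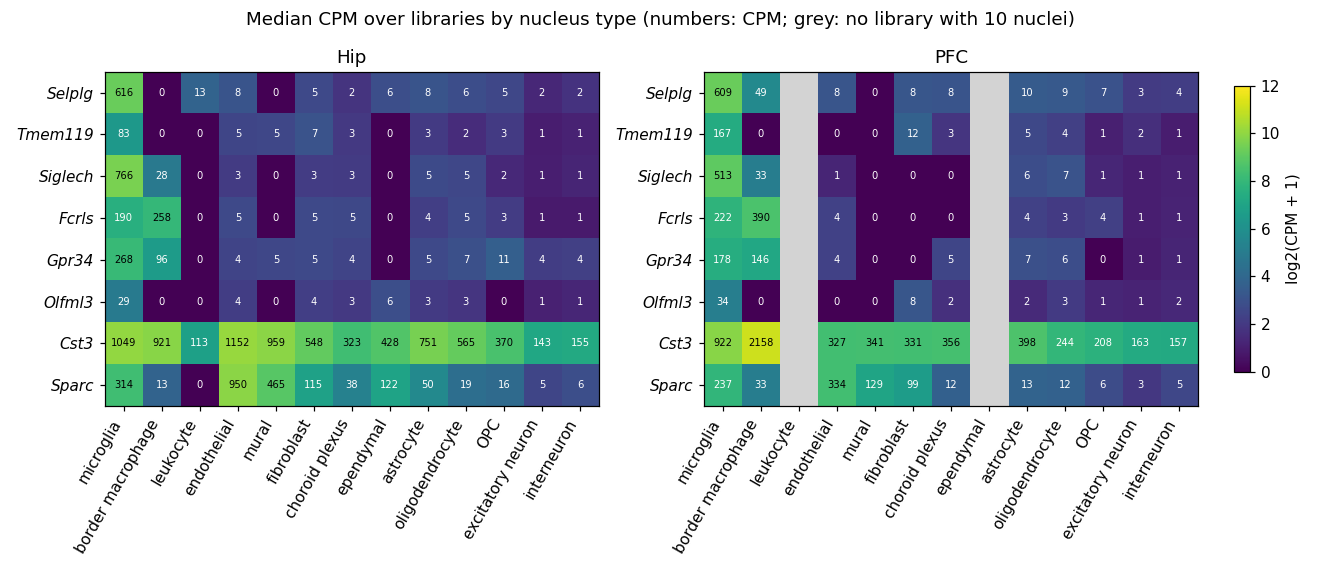
Level of each of the 8 genes in each nucleus type of Hip and PFC, as the median CPM over libraries. Selplg, Tmem119, Siglech, Fcrls, Gpr34 and Olfml3 stand at 13.1 CPM or less in every type outside the myeloid gate, whereas Sparc reaches 950 CPM in Hip endothelial cells and Cst3 stands at 113 CPM or more in every type of Hip, with medians that pool GF, SPF and CGF libraries.

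Against border macrophages, the 8 genes split. UMIs of both regions were summed per mouse, and the 9 mice entered 1 test with the mouse as a block, in which 9.90% of all genes were called higher in microglia and 4.19% lower, and in which 7 of the 8 genes were called higher. Selplg had 10 UMIs among the 282174 UMIs of all border macrophage nuclei and 5471 among the 6813496 of microglia, a ratio of levels of 22.7 (95% exact interval 12.3 to 47.3, counting error only). Border macrophages held 0 Selplg UMIs in 5 of 9 mice. Siglech (11 against 4887 UMIs) differed by a ratio of 18.4 (10.3 to 36.9), and Sparc (8 against 2069) by 10.7 (5.43 to 24.8).

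Tmem119 and Olfml3 rested on 2 and 1 border macrophage UMIs, so that their ratios of 17 (4.69 to 141) and 12.4 (2.21 to 492) were loose. Both passed the test, with log2 differences of 4.30 (SE 0.62, adjusted p = 1.2e-10) and 3.76 (SE 0.91, adjusted p = 0.000611). Gpr34 ran from 0 to 209 CPM in border macrophages (median 86.9) and from 175 to 490 CPM in microglia (median 229), and was higher in microglia in 9 of 9 mice by 1.8 on the log2 scale (SE 0.28, adjusted p = 6.53e-09). Border macrophages held 0 Gpr34 UMIs in 2 of 9 mice, so that most mice had both values above 0.

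Fcrls was the exception among the surface genes. It ran from 98.9 to 862 CPM in border macrophages (median 242) and from 117 to 433 CPM in microglia (median 191). The ranges overlapped, microglia were higher in 2 of 9 mice, and the log2 difference was -0.042 (SE 0.22, adjusted p = 0.933). Cst3 ran from 719 to 2723 CPM in border macrophages and from 822 to 4831 CPM in microglia. It was higher in microglia in 7 of 9 mice. With the groups pooled it passed the test by 0.68 (SE 0.17, adjusted p = 0.00112), a call that DESeq2 did not make (0.39). GF mice 5, 6 and 7 held 3648, 4831 and 3999 CPM in microglia and 1767, 2723 and 2440 CPM in border macrophages. SPF mice 30, 31 and 32 held 822, 934 and 972 against 1781, 833 and 770 CPM. CGF mice 17, 18 and 19 held 1027, 852 and 1100 against 719, 949 and 989 CPM. The excess in microglia was thus widest in GF, with SPF mouse 30 and CGF mouse 18 reversed. Whether the excess differed between groups was not tested. The plot of paired levels by mouse shows how the genes split against border macrophages.

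**Figure D2:**
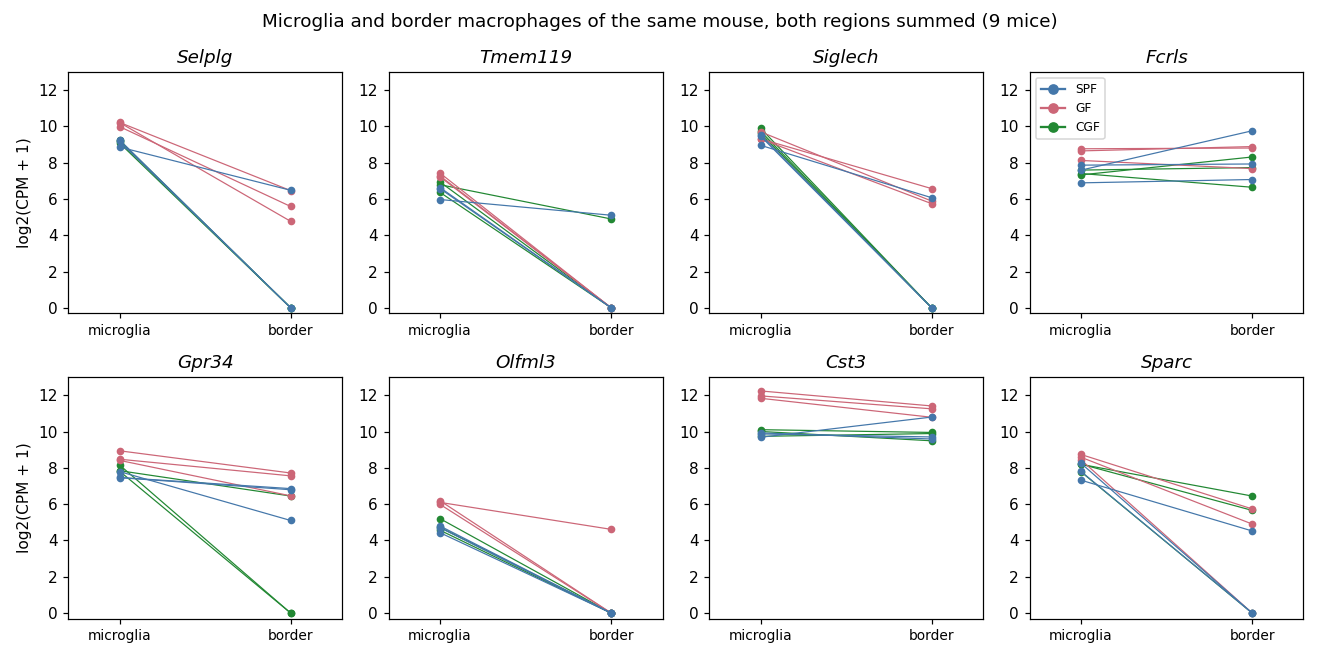
Level of each of the 8 genes in microglia and border macrophages of each of the 9 mice (CPM of the summed UMIs of both regions, log axis), a line joining the 2 values of a mouse. Lines run down steeply from microglia for Selplg, Siglech, Tmem119, Sparc and Olfml3, run both ways for Fcrls, from 191 up to 862 CPM in SPF mouse 30 and from 168 down to 98.9 CPM in CGF mouse 19, and likewise for Cst3, from 822 up to 1781 CPM in SPF mouse 30 and from 3648 down to 1767 CPM in GF mouse 5.

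What the absence of a microbiota changed in microglia was asked by comparing GF with SPF mice. In Hip, 6 of the 8 genes were called higher in GF and 0 lower (edgeR's quasi-likelihood test with Benjamini-Hochberg adjustment over 8444 genes), where 11.5% of all genes were called higher and 7.63% lower. The median log2 difference of the 8 was 0.94, beside -0.033 over all genes tested. Cst3 rose most, followed by Olfml3, Tmem119, Gpr34, Selplg and Fcrls, while Siglech and Sparc did not pass. In PFC, 5 were called higher and 0 lower over 5232 genes, where 17.6% of all genes were higher and 21.7% lower, and the median was 1.0 beside -0.023. The 8 were chosen with earlier results of these data known, so these counts and medians do not test them as a set. With trends in gene length, GC content and span removed, as described further on, the Hip calls of Tmem119, Fcrls and Gpr34 and the PFC calls of Siglech and Gpr34 were lost.

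Among the surface genes in Hip, Selplg stood at 1172, 1181 and 1019 CPM in GF mice 5, 6 and 7 and at 666, 645 and 470 CPM in SPF mice 30, 31 and 32. The groups did not overlap, and GF was higher by 0.92 on the log2 scale (SE 0.15, adjusted p = 0.000444). Tmem119 stood at 200, 139 and 128 CPM in the GF mice and at 86.8, 55.6 and 67.7 CPM in the SPF mice, again without overlap, a log2 difference of 1.14 (SE 0.22, adjusted p = 0.00142; 0.65 with trends removed, not passing). Gpr34 reached 317, 533 and 355 CPM in GF and 192, 243 and 188 CPM in SPF, with GF mouse 6 the highest and the groups apart (0.95, SE 0.18, adjusted p = 0.00134; 0.42 with trends removed, not passing).

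Fcrls stood at 276, 313 and 366 CPM in GF and at 194, 115 and 201 CPM in SPF, groups that did not overlap (0.90, SE 0.20, adjusted p = 0.00366; 0.44 with trends removed, not passing). Siglech went another way. It measured 784, 528 and 622 CPM in GF and 802, 851 and 552 CPM in SPF, values that overlapped, with a log2 difference of -0.19 (SE 0.18, adjusted p = 0.512).

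Of the secreted proteins in Hip, Cst3 stood at 3558, 4238 and 3950 CPM in GF and at 905, 990 and 1115 CPM in SPF. Every GF library exceeded every SPF library by a wide margin, and the log2 difference was 1.96 (SE 0.16, adjusted p = 2.08e-07). Olfml3 measured 83.0, 68.2 and 67.3 CPM in GF and 30.1, 18.5 and 22.6 CPM in SPF, from 91 and 41 UMIs in all, and was higher in GF by 1.60 (SE 0.29, adjusted p = 0.000821). Sparc measured 388, 379 and 332 CPM in GF and 244, 337 and 161 CPM in SPF, where SPF mouse 31 lay within the GF range, and its difference of 0.57 (SE 0.20, adjusted p = 0.0525) passed without that mouse (0.84).

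**Figure D3:**
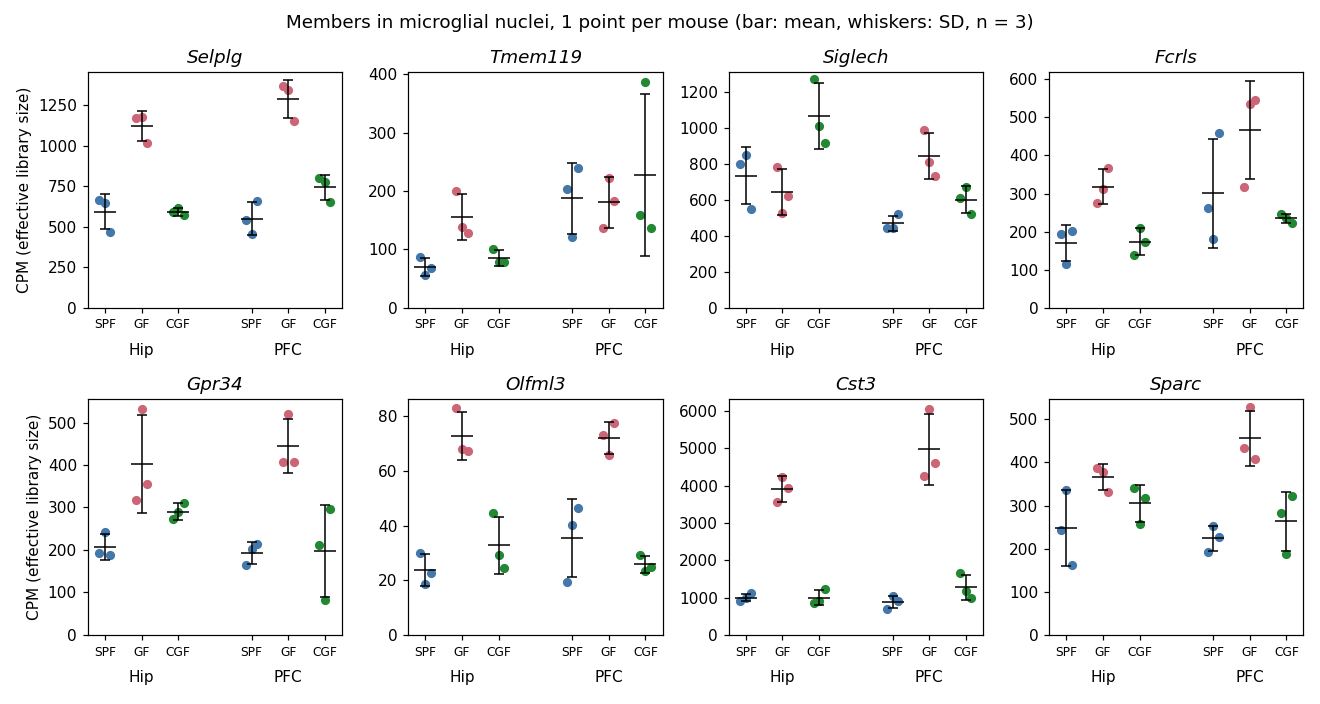
Level of each of the 8 genes in microglia of every library (CPM by effective library size, linear axis), by region and group, with a bar at the mean of 3 mice and whiskers for the SD. Cst3 shows the widest gap, with GF at 3558 CPM or more and SPF and CGF at 1651 CPM or less in either region.

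In PFC, Selplg stood at 1371, 1346 and 1153 CPM in GF and at 541, 453 and 659 CPM in SPF, without overlap (log2 difference 1.21, SE 0.19, adjusted p = 1.79e-05). Gpr34 measured 408, 519 and 407 CPM in GF and 164, 201 and 213 CPM in SPF, likewise apart (1.19, SE 0.25, adjusted p = 0.00043; 0.059 with trends removed, not passing). Siglech, which did not pass in Hip, measured 988, 813 and 734 CPM in GF and 444, 443 and 519 CPM in SPF and was higher in GF by 0.84 (SE 0.19, adjusted p = 0.000919; 0.15 with trends removed, not passing).

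Tmem119, called in Hip, did not pass in PFC, where its groups overlapped, at 136, 223 and 183 CPM in GF and 203, 121 and 240 CPM in SPF. The log2 difference was -0.10 (SE 0.29, adjusted p = 0.813). Fcrls measured 318, 536 and 547 CPM in GF and 261, 181 and 459 CPM in SPF, overlapping through SPF mouse 32, and its difference of 0.58 (SE 0.25, adjusted p = 0.0666) passed without that mouse (1.08) or without GF mouse 5 (0.82).

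Cst3 measured 4255, 6055 and 4618 CPM in GF and 705, 1047 and 898 CPM in SPF, a log2 difference of 2.49 (SE 0.23, adjusted p = 4.88e-09). Sparc, which missed the threshold in Hip, measured 434, 528 and 407 CPM in GF and 193, 252 and 226 CPM in SPF, groups without overlap, and was higher in GF by 1.02 (SE 0.21, adjusted p = 0.000442). Olfml3 measured 73.0, 65.8 and 77.4 CPM in GF and 19.3, 40.3 and 46.6 CPM in SPF, apart but with only 13 SPF UMIs in all, and its difference of 0.97 (SE 0.40, adjusted p = 0.0544) did not pass. The count filter in PFC asked for 53.3 CPM in 3 libraries, which Olfml3 reached in the 3 GF libraries and in 0 of the others, so that it was tested there only through the group where it is high. Each of the other 7 genes passed without the GF libraries, and in Hip all 8 did.

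**Figure D4:**
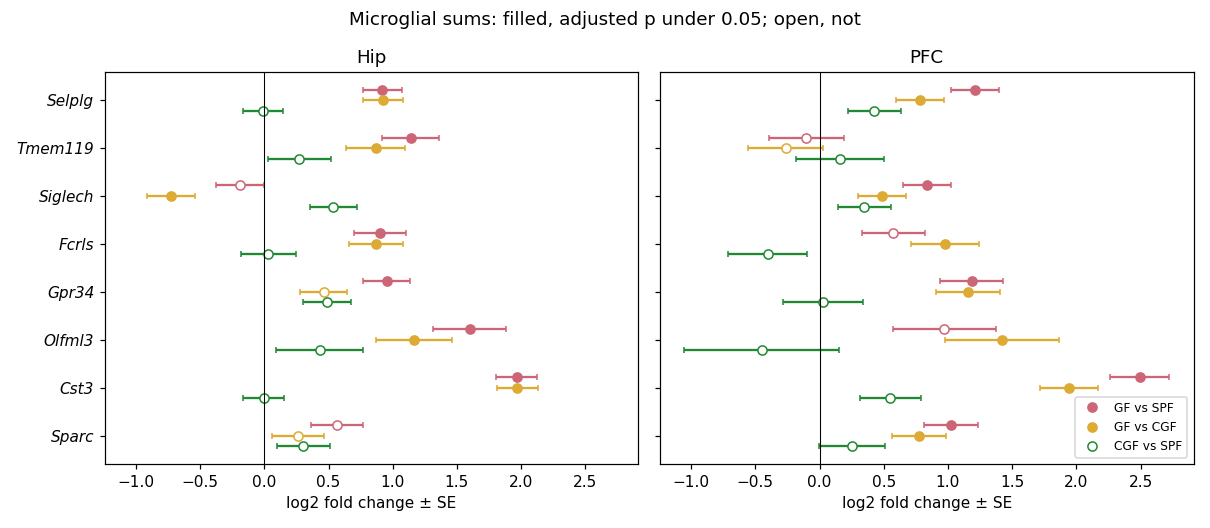
Log2 difference in microglia (points) with its standard error (bars) for each of the 8 genes in each comparison of 2 groups, by region. In Hip GF vs SPF the 6 called genes lie between 0.90 for Fcrls and 1.96 for Cst3, with Sparc at 0.57 and Siglech at -0.19, and CGF vs SPF runs from -0.45 for Olfml3 to 0.55 for Cst3, both in PFC.

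The genes used to pick microglia moved with the groups themselves. The 18 myeloid markers, none at 0, summed to 10788 to 12459 CPM in PFC of GF mice and 7745 to 8887 CPM in SPF and CGF, without overlap, and in Hip to 9447 to 10396 CPM in GF, 7335 to 9340 CPM in SPF and 8624 to 9880 CPM in CGF. Among them in Hip, C1qa, a complement subunit, ran from 563 to 591 CPM in GF and from 66.7 to 120 CPM in SPF, and Ctss, a cathepsin, from 552 to 788 and from 304 to 434 CPM, while Csf1r, a growth factor receptor, overlapped (586 to 706 and 561 to 608 CPM). Apbb1ip, another of the 18, went the other way without overlap, from 536 to 610 CPM in GF and from 917 to 1282 CPM in SPF. The part of this in the differences was not tested.

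Marker lists of other cells, summed in the microglia, moved with the groups, mostly in Hip, some of them largely through 1 gene. The 10 border macrophage markers summed to 175 to 259 CPM in Hip of GF mice, 85.0 to 121 CPM in SPF and 99.2 to 171 CPM in CGF, with 6, 4 and 7 of the 10 at 0 UMIs. Of these, Stab1 alone stood at 172 to 218, 61.2 to 93.5 and 80.1 to 127 CPM by effective library size. The 10 astrocyte markers, none at 0, summed to 2512 to 2562 CPM in Hip of GF mice, below the 3471 to 4220 CPM of SPF and the 3804 to 4737 CPM of CGF. Slc1a3 alone stood at 1841 to 2221, 2587 to 3376 and 2903 to 3889 CPM by effective library size. In Hip the 10 oligodendrocyte markers (488 to 742 CPM in GF, 895 to 1444 in SPF, 889 to 1187 in CGF) and the 10 interneuron markers (415 to 493, 799 to 869 and 731 to 829 CPM), none at 0, were also lower in GF without overlap. So were the 9 precursor (OPC) markers (184 to 402, 409 to 570 and 525.5 to 883 CPM, with 1, 0 and 0 at 0) and the 10 fibroblast markers (82.7 to 115, 124 to 140 and 120 to 182 CPM, with 2, 0 and 1 at 0). Of the OPC markers, Tnr alone stood at 132 to 346, 326 to 461 and 438 to 800 CPM by effective library size. The border, astrocyte and OPC sums thus rested largely on 1 gene each and are not read as the level of a cell type. Hbb-bs, a haemoglobin gene of red blood cells, was higher in GF without overlap in Hip (83.9 to 234 CPM in GF, 22.3 to 42.5 in SPF, 36.5 to 64.4 in CGF) and in PFC (114 to 282, 0 to 16.5 and 24.7 to 46.1 CPM). In PFC the 9 ependymal markers were lower in GF (22.0 to 38.9 CPM, against 69.3 to 101 in SPF and 64.5 to 156 in CGF, with 4, 4 and 5 at 0). There the border markers summed to 211 to 306 CPM in GF, 177 to 251 CPM in SPF and 286 to 426 CPM in CGF, with 3, 6 and 6 at 0. In CGF mouse 18, 9 of the 10 were at 0, and Stab1 was the only border marker found. The 10 choroid plexus markers ran from 28.0 to 7422 CPM in Hip of GF mice and from 463 to 2479 CPM in SPF. The part of these nuclei or of free RNA in the differences was not tested. With nuclei that also passed another gate left out, every one of the 8 genes called higher in GF vs SPF stayed called in both regions.

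Whether co-housing moved the 8 genes was asked by comparing CGF with both other groups, comparisons that share the GF or the SPF libraries with the one above. In CGF vs SPF, 0 of the 8 genes passed in Hip, where 0.0474% of all genes were higher and 0.0237% lower, and 0 of 8 in PFC, where 0.0191% were higher and 0.0191% lower (edgeR's quasi-likelihood test). In each region 2 of the 8 had an unadjusted p under 0.05, and DESeq2 called 0 as well. In GF vs CGF, 5 genes were higher and 1 lower in GF in Hip, where 11.4% of all genes were higher and 7.97% lower. In PFC, 7 were higher, Olfml3 among them, which passed the count filter there only through GF, where 16.8% of all genes were higher and 19.7% lower. With trends in gene length, GC content and span removed, the calls of Tmem119 (0.20) and Fcrls (0.36) in Hip and of Fcrls (0.14), Gpr34 (0.058) and Siglech in PFC were lost.

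Cst3 in Hip of CGF mice 17, 18 and 19 stood at 868, 897 and 1228 CPM, on both sides of the SPF range and below every GF library (GF vs CGF 1.97, SE 0.16, adjusted p = 2.25e-07). In PFC it stood at 1651, 1174 and 1002 CPM, 2 of them above every SPF library, with a CGF vs SPF difference of 0.55 (SE 0.24, adjusted p = 0.699). The PFC difference from GF was 1.94 (SE 0.22, adjusted p = 2.25e-07).

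Selplg in CGF mice measured 589, 614 and 570 CPM in Hip and 799, 775 and 656 CPM in PFC. In PFC mouse 19 alone lay below the highest SPF library, and all 6 CGF libraries lay below every GF library of their region, with GF vs CGF differences of 0.93 in Hip (SE 0.16, adjusted p = 0.000436) and 0.78 in PFC (SE 0.19, adjusted p = 0.00173). Fcrls measured 139, 208 and 174 CPM in Hip and 247, 235 and 223 CPM in PFC, below GF by 0.87 (SE 0.21, adjusted p = 0.00603) and 0.98 (SE 0.27, adjusted p = 0.00546). Both genes thus stood lower in CGF than in GF in both regions.

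Gpr34 measured 272, 288 and 311 CPM in Hip of CGF mice, between the other 2 groups, and did not pass against GF (0.46, SE 0.18, adjusted p = 0.0845). In PFC it measured 212, 82.2 and 297 CPM, with mouse 18 the lowest of all libraries, and GF was higher by 1.16 (SE 0.25, adjusted p = 0.000726). Olfml3 measured 44.4, 29.4 and 24.5 CPM in Hip and 29.4, 23.5 and 24.7 CPM in PFC, from 36 and 9 UMIs in all. GF was higher by 1.17 in Hip (SE 0.30, adjusted p = 0.00921) and by 1.42 in PFC (SE 0.44, adjusted p = 0.0136), the Hip call being lost with DESeq2 and the PFC call without CGF mouse 17 or with microglia taken from clusters (0.92). The PFC value is of a gene that passed the count filter only through GF and supports no difference by itself.

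Sparc measured 341, 256 and 318 CPM in Hip of CGF mice, overlapping GF (0.26, SE 0.20, adjusted p = 0.394), and 282, 188 and 322 CPM in PFC, below GF (0.77, SE 0.21, adjusted p = 0.00527). Tmem119 measured 101, 77.5 and 78.3 CPM in Hip, below GF by 0.87 (SE 0.23, adjusted p = 0.0119), a call lost without GF mouse 5 (0.63) or CGF mouse 18 (0.79). In PFC it measured 159, 388 and 136 CPM, where CGF mouse 18 was the highest of all libraries and the difference from GF was -0.26 (SE 0.29, adjusted p = 0.503), or 0.27 without that mouse. No direction held for Tmem119 in PFC.

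Siglech was the gene that stood highest in Hip of CGF mice, at 1271, 1012 and 917 CPM, above every GF library. It was lower in GF than in CGF by a log2 difference of -0.73 (SE 0.19, adjusted p = 0.00955), the only member called lower in GF in this comparison, and the call was lost without CGF mouse 17 (-0.61) or GF mouse 6 (-0.63). The CGF vs SPF difference was 0.54 in Hip (adjusted p = 0.587). In PFC the CGF libraries stood at 611, 669 and 520 CPM, and GF was higher by 0.49 (SE 0.19, adjusted p = 0.0403), a call lost without any 1 of GF mice 5 and 6 or CGF mice 17 and 19 (0.39 to 0.54), and turned with length and GC trends removed (-0.21, not passing). Of 17 alternative settings in all, 8 kept this PFC call, 8 lost it, those mice included, and 1 turned its sign.

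Regional differences were asked by comparing Hip with PFC microglia within each group. In GF mice 0 of the 8 genes passed, where 2.00% of all genes were higher in Hip and 0.511% lower (edgeR's quasi-likelihood test), with 1 of the 8 at an unadjusted p under 0.05. In SPF mice Siglech was higher in Hip, with 735 ± 160 CPM against 469 ± 43.4 CPM in PFC (SD, n = 3; log2 difference 0.72, SE 0.21, adjusted p = 0.0104), where 10.4% of all genes were higher and 10.9% lower. Tmem119 was lower in Hip, with 70.0 ± 15.8 CPM against 188 ± 60.8 CPM (-1.37, SE 0.32, adjusted p = 0.00191), as was Fcrls, with 170 ± 47.9 CPM against 300.4 ± 143 CPM (-0.80, SE 0.27, adjusted p = 0.0303).

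Without SPF mouse 32 the Tmem119 and Fcrls calls were lost (-1.04 and -0.38), and without mouse 30 or 31 the Siglech call was lost (0.62 and 0.56). In CGF mice Siglech was higher in Hip (0.93, SE 0.20, adjusted p = 0.00112) and Tmem119 lower (-1.25, SE 0.32, adjusted p = 0.00566), where 10.1% of all genes were higher and 10.2% lower. The Tmem119 call was lost without CGF mouse 18 (-0.61), and both were lost with trends in gene length, GC content and span removed (0.46 for Siglech and -0.96 for Tmem119). In SPF mice the Siglech call was lost under the same removal (0.25) and with a stricter gate on myeloid marker UMIs (0.62), that of Fcrls with DESeq2 (-0.75), with microglia taken from clusters (-0.55) and without CGF mouse 18 (-0.72), and thinning to equal totals ended those of Siglech (0.44) and Tmem119 (-1.07). With the mouse as a block, Gpr34 was called higher in Hip as well (0.69).

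Whether the GF vs SPF difference itself differed between regions was tested as an interaction over 9596 genes, of which 5.28% were called higher in Hip and 4.87% lower. Tmem119 passed, its difference being larger in Hip by 1.25 (SE 0.39, adjusted p = 0.037), and so did Siglech, its difference being lower in Hip by -1.02 (SE 0.27, adjusted p = 0.0143). The Tmem119 call was lost without GF mouse 5 or 7 or any 1 SPF mouse (0.85 to 1.40) and with DESeq2 (1.22), and the Siglech call without SPF mouse 30 (-0.92) or 31 (-0.85). Both were lost when libraries were thinned to equal totals (1.24 for Tmem119 and -0.66 for Siglech), with trends in gene length, GC content and span removed (1.03 and -0.58) and with a stricter gate on myeloid marker UMIs (1.12 and -0.93). The other 6 genes did not pass.

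The length of a gene's span moved with the GF differences across all genes. In Hip, genes with a span under 10 kb had a median GF vs SPF difference of 0.67 and 40.5% of them were called higher, those of 10 to 30 kb had a median of 0.15 with 11.6% higher, and those over 100 kb a median of -0.30. In PFC the medians were 0.48, 0.14 and -0.31. In CGF vs SPF the genes under 10 kb had medians of -0.13 in Hip and -0.026 in PFC. All 8 described genes fall in the classes of up to 30 kb.

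When trends with exon length, GC content and span were removed, 3 genes stayed called in Hip GF vs SPF, namely Selplg (0.72), Olfml3 (1.52) and Cst3 (1.13). The calls of Tmem119 (0.65), Fcrls (0.44) and Gpr34 (0.42) were lost. In PFC, Selplg (0.93), Cst3 (1.99) and Sparc (0.84) stayed called and Olfml3 passed (1.11), while the calls of Siglech (0.15) and Gpr34 (0.059) were lost. Cst3 and Selplg were thus called in both regions with the trends removed, Olfml3 in PFC only as a gene that passed the count filter through GF, and no gene was called in the opposite direction. The shares of all genes called with trends removed are not given here, so these counts are not read against them.

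**Figure D5:**
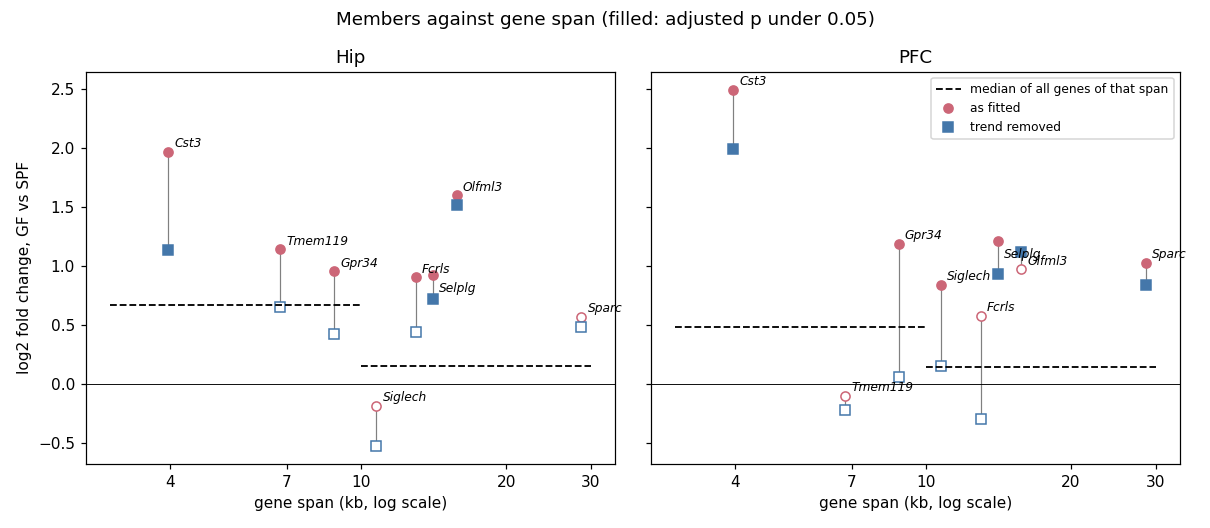
GF vs SPF log2 difference in microglia against gene span (kb, log axis) for the 8 described genes in Hip and PFC. For each gene a line joins the value as fitted to the value with trends removed. Dashed lines give the medians of all genes with spans under 10 kb and of 10 to 30 kb. Short genes lie higher on average, at a median of 0.67 in Hip for spans under 10 kb, and Cst3, at 1.96 there, lies above that median.

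The GF vs SPF difference in other cell types was examined where a gene passed the count filter. Cst3 was called higher in GF in 9 of 9 Hip types (log2 differences 1.23 to 2.54) and 8 of 8 PFC types (0.57 to 2.70). Of all genes, 1.34% were called higher in Hip ependymal cells, 1.88% in fibroblasts, 4.77% in endothelial cells, 7.15% in mural cells, 12.9% in OPC, 18.8% in oligodendrocytes, 19.1% in astrocytes, 21.6% in interneurons and 25.2% in excitatory neurons. In PFC 6.13% were higher in mural cells, 14.1% in fibroblasts, 17% in OPC, 19.3% in oligodendrocytes, 19.7% in endothelial cells, 23.2% in astrocytes, 26.7% in interneurons and 31.6% in excitatory neurons. In Hip astrocytes it ran from 3918 to 4346 CPM in GF and from 650 to 775 CPM in SPF, without overlap, beside 666 to 751 CPM in CGF (2.54, SE 0.11, adjusted p = 8.77e-10). In Hip excitatory neurons it ran from 295 to 458 CPM in GF and from 97.5 to 169 CPM in SPF (1.39, SE 0.24, adjusted p = 0.00119). Free RNA of the other types adds to such sums, and its part in these calls was not tested.

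Interaction tests set these differences against those of microglia. The Cst3 difference of GF vs SPF in microglia was lower than that in Hip astrocytes by -0.61 (adjusted p = 0.0330) and higher than that in PFC excitatory neurons by 1.91 (adjusted p = 4.15e-16). For these 2 interactions, 0.813% of all genes were called lower than in Hip astrocytes and 4.19% higher than in PFC excitatory neurons. Cst3 did not pass against Hip endothelial cells (0.52), Hip excitatory neurons (0.43), PFC astrocytes (-0.17) or PFC endothelial cells (-0.034). In Hip the microglial difference of Selplg exceeded the neuronal one by 1.33 (adjusted p = 1.10e-06), where 0.576% of all genes were called higher, and these neurons held 1.26 to 1.70 CPM of Selplg in GF and 1.53 to 2.44 CPM in SPF. In GF vs CGF, which shares the GF libraries, 0.838% of all genes were called lower than in Hip astrocytes, among them Cst3 (-0.62) and Sparc (-0.98). In PFC 4.23% were called higher than in excitatory neurons, among them Cst3 (0.95) and Selplg (0.89), 3.69% lower, among them Gpr34 (-2.00), and 1.58% higher than in endothelial cells, among them Selplg (2.19). The PFC neurons held 1.66 to 3.30 CPM of Selplg over GF and CGF, and 0.425 to 0.855 CPM of Gpr34 in CGF.

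Sparc was called higher in GF in 1 of 9 Hip types, astrocytes (0.45, SE 0.17, adjusted p = 0.0497), and in 5 of 6 PFC types (0.62 to 2.59), in 2 of which, astrocytes and interneurons, it passed the count filter only through GF. In PFC endothelial cells it ran from 861 to 906 CPM in GF and from 152 to 334 CPM in SPF, without overlap (2.00, SE 0.24, adjusted p = 1.55e-06). In Hip endothelial cells the GF range of 734 to 960 CPM lay within the SPF range of 419 to 1557 CPM. The difference between regions was not tested in endothelial cells, and in microglia it did not pass.

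Gpr34 was called higher in GF in 2 of 5 Hip types and 2 of 2 PFC types, among them PFC excitatory neurons, with 5.44 to 6.34 CPM in GF and 0.585 to 1.15 CPM in SPF (2.93, SE 0.26, adjusted p = 1.12e-06). In both PFC types, excitatory neurons and interneurons, Gpr34 passed the count filter only through GF, the group where it is high. The interaction of microglia against PFC excitatory neurons was -1.78 (adjusted p = 1.56e-05), where 4.72% of all genes were called lower. In SPF these neurons held 32 Gpr34 UMIs, a level at which free and neuronal RNA cannot be told apart. The interaction therefore does not rank the rise of the 2 types. Cask, the gene around Gpr34, was higher in GF microglia in PFC by 1.17 (SE 0.22, adjusted p = 0.000124) and did not pass in Hip (-0.13, adjusted p = 0.575). In Hip, where Gpr34 rose, Cask ran from 271 to 343 CPM in GF and from 319 to 351 CPM in SPF, overlapping values. In the excitatory neurons of PFC, Cask ran from 232 to 244 CPM in GF and from 151 to 163 CPM in SPF, apart in the same direction as Gpr34. In those of Hip it ran from 139 to 156 CPM in GF and from 179 to 202 CPM in SPF, apart in the other direction, while Gpr34 ran from 4.75 to 6.16 and from 3.31 to 3.64 CPM. The part of Cask molecules in the Gpr34 differences was not tested.

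The other 5 surface and secreted genes passed the count filter in few types outside microglia. For GF vs SPF, Selplg was tested in 4 Hip types and 2 PFC types, Siglech and Fcrls in 2 and 1, and Tmem119 and Olfml3 in 1 and 1. Fcrls and Olfml3 were called in none of theirs, and each of the other 3 genes in 1. Siglech was lower in GF in Hip excitatory neurons (-1.23, SE 0.30, adjusted p = 0.00778), where 21.3% of all genes were lower, at 0.344 to 0.754 CPM against 0.989 to 1.52 CPM in SPF. Selplg and Tmem119 were lower in GF in PFC excitatory neurons, by -0.66 (SE 0.25, adjusted p = 0.0353) and -1.40 (SE 0.34, adjusted p = 0.00304), where 30.7% of all genes were. These levels are below 5 CPM, at which free RNA and neuronal RNA cannot be told apart.

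Shares of nuclei with at least 1 UMI gave the same measure per nucleus, after each nucleus was thinned to 500 UMIs, which left none out. With 3 mice against 3, the exact two-sided permutation test cannot go below p = 0.1. In Hip, Cst3 was found in 80.2 ± 6.86% of GF and 37.7 ± 1.88% of SPF microglia (SD, n = 3; exact permutation p = 0.1), and unthinned in 98.5% and 81.6%. The share in excitatory neurons, at the same thinning, was 4.76 to 23.7% in Hip. In PFC Cst3 was found in 82.9 ± 3.38% of GF and 29.1 ± 5.72% of SPF microglia (exact permutation p = 0.1), beside 5.81 to 14.4% of excitatory neurons. Before thinning, the median excitatory neuron held 5967.5 to 10474 UMIs in Hip and 3485 to 10250 in PFC, more than the median microglial nucleus.

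Selplg was found in 42.5 ± 1.90% of GF and 25.1 ± 3.37% of SPF microglia in Hip (exact permutation p = 0.1, n = 3), beside 0.0580 to 0.151% of excitatory neurons. In each region at most 0.247% of excitatory neurons had Siglech or Tmem119 at the same thinning. Siglech was found in 27.1 ± 3.86% and 28.5 ± 5.35% in Hip (exact permutation p = 0.8, n = 3) and in 30.7 ± 3.14% and 18.5 ± 1.62% in PFC (exact permutation p = 0.1, n = 3). For Tmem119 in PFC, the unthinned shares of 22.1% in GF and 11.7% in SPF became 7.43 ± 1.83% and 8.19 ± 3.02% at 500 UMIs (exact permutation p = 0.8, n = 3). The order of the groups for Tmem119 in PFC was thus the opposite before and after thinning.

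How many of the 8 genes a nucleus showed was counted without thinning. The median microglial nucleus had UMIs of 4 of the 8 genes in GF in both regions, of 3 to 3.5 in Hip of SPF and CGF mice, and of 1 to 2 in their PFC. Over all nuclei of a group the median depth was 1637 UMIs in GF, 1852.5 in SPF and 1781 in CGF in Hip, where the count of genes did not follow it, and 1561, 683.5 and 730.5 UMIs in PFC, where depth and count were both highest in GF. In PFC, 19.3 to 24.2% of SPF and 13.1 to 19% of CGF microglia had none of the 8, against at most 0.345% in GF.

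Other genes of resting microglia were read from lists that held none of the 8, naming the 3 of each list with the smallest p per region. Of 18 other surface genes, 16 were tested in Hip, with 4 higher in GF than SPF and 0 lower (median 0.39), where 11.5% of all genes were higher and 7.63% lower. These included P2ry13, an ADP receptor that is also one of the genes used to pick microglia (1.44, SE 0.34, adjusted p = 0.0059), Ifngr1, an interferon gamma receptor subunit (0.91), and Itgb5, an integrin (0.52). In PFC 15 were tested, with 8 higher and 1 lower (median 0.62), where 17.6% of all genes were higher and 21.7% lower, and 3 of the 15 passed the count filter only through GF. Among the higher ones were Mertk, a receptor for apoptotic cells (1.28, SE 0.19, adjusted p = 9.56e-06), Entpd1, an ectonucleotidase (1.28), and Tlr7, a sensor of single-stranded RNA (1.44).

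Of 10 other secreted genes, 7 were tested in each region and 1 was higher in each, Rnase4, a secreted ribonuclease, by 0.89 in Hip (SE 0.28, adjusted p = 0.0294) and by 2.31 in PFC (SE 0.51, adjusted p = 0.00071). Of all genes, 11.5% were higher in Hip and 17.6% in PFC, so that 1 of 7 is near the share of all genes, and the list medians were -0.026 and 0.036. In PFC Rnase4 reached the filter's 53.3 CPM only in the GF libraries (71.0 to 113 CPM, against 10.1 to 29.0 CPM in SPF and 23.5 to 58.7 CPM in CGF by effective size), so that it was tested through the group where it is high. Next by p were Grn (0.44) and Tgfb1 (0.27) in Hip and Pros1 (0.29) and Timp2 (0.30) in PFC, none of which passed.

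Among transcription factors that mark microglial identity, Sall3 (-0.56) and Smad3 (-0.21) did not pass in Hip. In PFC 1 of 6 tested was higher in GF, Spi1, which encodes PU.1 (1.25, SE 0.25, adjusted p = 0.000319), where 17.6% of all genes were higher, with Mef2c (0.42) and Runx1 (0.36) not passing. Disease-associated microglial genes, which are known to rise where homeostatic genes fall, showed 4 of 5 tested of 15 listed higher in Hip and 3 of 4 in PFC, with 0 lower, where 11.5% and 17.6% of all genes were higher. Of the 15, 10 were not tested in Hip and 11 in PFC, and Cd9 passed the PFC filter only through GF, so that no share is read from the tested genes. They were led in Hip by Fth1, the ferritin heavy chain (1.46), Trem2, a lipid receptor (1.42, SE 0.21, adjusted p = 0.00021), and Cd9, a tetraspanin (1.12), and in PFC by Apoe, a lipid carrier (1.77, SE 0.21, adjusted p = 2.94e-07), Cd9 (2.67) and Fth1 (1.36).

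Of 27 relatives and partners of the 8 genes, 9 were tested in Hip, with 1 higher and 1 lower, and 6 in PFC, with 3 higher and 0 lower, where 11.5% and 17.6% of all genes were higher. In PFC 2 of the 6 passed the count filter only through GF, so that no share is read from the genes tested there. Ctsl, a cathepsin that cystatin C can inhibit, was higher in GF in both regions (0.93 in Hip, adjusted p = 0.00877, and 2.42 in PFC, adjusted p = 2.83e-05), although in PFC it passed the count filter only through GF (134 to 173 CPM, against 13.3 to 48.3 CPM in SPF). Ctsb, another cathepsin, was higher in PFC (1.59), Ctsh did not pass in Hip (0.58), and Olfml2b, a relative of Olfml3, was lower in Hip (-1.09, SE 0.36, adjusted p = 0.0388). The remaining PFC call was Cask (1.17), described above beside Gpr34.

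Genes whose levels followed each of the 8 most closely over the 24 combinations of type and region were read from 15546 genes, as Pearson correlations over points that share libraries and depth. The 3 nearest to Selplg were Csf3r (0.929), Il7r (0.926) and Naip6 (0.925), and to Tmem119 they were Lag3 (0.932), Edem2 (0.884) and Havcr2 (0.880). Siglech lay nearest Susd3 (0.944), Cdh23 (0.944) and 5430427O19Rik (0.931), and Gpr34 nearest Gm30329 (0.964), Sash3 (0.964) and Cd37 (0.963). Fcrls lay nearest Cd300c2 (0.973), Msh5 (0.972) and P2ry6 (0.972).

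Of the secreted genes, Olfml3 lay nearest Edem2 (0.898), Il1rl2 (0.895) and Mlxipl (0.866), the first of which was also near Tmem119. Cst3 lay nearest Pnpla7 (0.964), Atp5e (0.918) and Ndufb3 (0.914), and Sparc nearest Rab8a (0.947), Zfp36 (0.937) and Gpr146 (0.906).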

How the data were processed

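Single-nucleus RNA was captured by droplets (10x) from Hip and PFC of 9 mice. The authors deposited raw UMI counts per gene and nucleus, aligned to mm10 with Cell Ranger (3.1.0 per the file headers) after CASAVA 1.8. Whether introns were counted, and with which strand setting, is not given in the sources used here. Nuclei with at least 200 genes and at most 10% mitochondrial UMIs were kept, typed by marker genes that left out the 8 members, and border macrophages needed at least 3 border-marker UMIs over 2 genes and more of them than of microglia-restricted genes. No doublet caller was run, and 295 microglia that also passed another gate were left out in an alternative. Counts were summed per library and type (at least 10 nuclei) and tested with edgeR 4.0.16 (R 4.3.3) by the quasi-likelihood test with TMM scaling, filterByExpr and Benjamini-Hochberg adjustment over all genes at 0.05, in place of the authors' test over nuclei. DESeq2 1.42.0, thinning, a stricter gate, clusters (scanpy 1.11.5), no filter on low counts, trend removal, a mouse block and leaving out each mouse were alternatives. Levels in microglial libraries are CPM by effective library size, and those by type, of marker lists and in border macrophages are CPM of all UMIs. The fit was checked on simulated counts. Intervals cover counting error only.

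The mouse number in the labels pairs Hip and PFC of the same animal. Deviations from the group means correlated between the 2 regions of a mouse by 0.0252 to 0.142 over 9596 genes, beside -0.0680 to -0.0131 on average with other mice. Deviations from a mean of 3 mice sum to 0, which pushes the values with other mice below 0 when the same-mouse value is above 0. The 2 ranges are therefore not independent, and their contrast does not test the pairing. All 8 members were named in every comparison, with the 3 genes of smallest p per list and region and the 3 nearest in pattern, and 1 result under this rule is not reported here. The members and lists were chosen with earlier results of these data known. Shares with a UMI were compared by the exact permutation test.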

Additional observations from a re-analysis of the deposited data

Results flagged for a closer look

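Every result here was singled out because a test of the difference between 2 effects passed (an interaction term in edgeR's quasi-likelihood test, Benjamini-Hochberg adjusted over all genes). Groups of 3 mice were too small to look for single mice that stood apart by a formal rule. Between regions, the GF vs SPF difference of microglial Tmem119 was larger in Hip than in PFC by 1.25 on the log2 scale (adjusted p = 0.037), and that of Siglech was lower in Hip by -1.02 (adjusted p = 0.0143). Both calls were lost with trends in gene length, GC content and span removed, with thinned libraries and with the stricter gate, Tmem119 also with DESeq2 and without GF mouse 5 or 7 or any 1 SPF mouse, and Siglech without SPF mouse 30 or 31.

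Between microglia and excitatory neurons of Hip, the GF vs SPF difference was larger in microglia for Olfml3 (1.98, adjusted p = 0.00833), Tmem119 (1.69, adjusted p = 0.00372), Selplg (1.33, adjusted p = 1.10e-06), Fcrls (1.12, adjusted p = 0.00616), Siglech (0.94, adjusted p = 0.0347) and Sparc (0.79, adjusted p = 0.00298), where 0.576% of all genes were called in that direction. Siglech did not pass in Hip microglia themselves (-0.19), and its neuronal level was below 2 CPM in every library. The neuronal levels of Olfml3 (0.911 to 1.57 CPM over GF and SPF), Tmem119 (0.658 to 1.23), Fcrls (0.515 to 1.63) and Selplg (1.26 to 2.44) were also below 5 CPM, so that free and neuronal RNA cannot be told apart on that side. In PFC the difference was larger in microglia for Cst3 (1.91, adjusted p = 4.15e-16), Selplg (1.87, adjusted p = 4.77e-12) and Tmem119 (1.35, adjusted p = 0.00481), where 4.19% of all genes were, and smaller for Gpr34 (-1.78, adjusted p = 1.56e-05), where 4.72% were. Tmem119 did not pass in PFC microglia themselves (-0.10) and was lower in GF in the PFC excitatory neurons (-1.40). There the neurons held 1.66 to 4.75 CPM of Selplg and 0.819 to 4.17 CPM of Tmem119 over GF and SPF, and 0.585 to 1.15 CPM of Gpr34 in SPF, with the same limit. Cst3 rose less in Hip microglia than in Hip astrocytes (-0.61, adjusted p = 0.0330), where 0.813% of all genes did.

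In GF vs CGF, which shares the GF libraries with the tests above, Cst3 (-0.62, adjusted p = 0.0363) and Sparc (-0.98, adjusted p = 0.0238) differed less in Hip microglia than in Hip astrocytes. In PFC the microglial difference exceeded the neuronal one for Cst3 (0.95, adjusted p = 0.000299) and Selplg (0.89, adjusted p = 0.0137), exceeded the endothelial one for Selplg (2.19, adjusted p = 0.0455, resting on 12 endothelial UMIs at 2.01 to 10.8 CPM in GF and 12 at 10.8 to 37.2 CPM in CGF), and fell below the neuronal one for Gpr34 (-2.00, adjusted p = 1.25e-05). These neurons held 1.66 to 3.30 CPM of Selplg over GF and CGF, and 0.425 to 0.855 CPM of Gpr34 in CGF. At such levels, below 5 CPM, free and neuronal RNA cannot be told apart.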

How the results depend on the processing

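Of the calls of the 8 genes, that of Siglech in PFC GF vs CGF turned its sign under 1 setting (trends removed, -0.21, not passing), and counts of calls within 1.5 times of those reported are not repeated. The shares of all genes called under the alternative settings are not given here, so the counts below are not read against them. With length and GC trends removed, 3 genes were called in Hip GF vs SPF, 4 in PFC GF vs CGF, and 0 in CGF Hip vs PFC and in the region difference of GF vs SPF. The latter also had 0 with thinned libraries or the stricter gate and 1 with DESeq2, and SPF Hip vs PFC had 1 when thinned. Leaving out 1 mouse gave 6 to 7 called genes in Hip GF vs SPF, 5 to 6 in Hip GF vs CGF, 5 to 6 in PFC GF vs SPF, 5 to 7 in PFC GF vs CGF, 1 to 3 in SPF and in CGF Hip vs PFC, 0 to 2 in the region difference, 7 against border macrophages, and 0 in CGF vs SPF and GF Hip vs PFC. With the mouse as a replicate block, the pairing of Hip and PFC gave 0 calls in GF, 3 in SPF and 3 in CGF (Gpr34 added, 0.69) and 2 in the region difference, and changed no other call. Signs also turned for values that had not passed, as follows. With trends removed, Gpr34 in Hip GF vs CGF became -0.026 and in the region difference 0.49, in SPF and CGF Hip vs PFC -0.63 and -0.18, Selplg in SPF Hip vs PFC -0.019 and in Hip CGF vs SPF 0.049, Cst3 in the latter 0.15, and Fcrls in PFC GF vs SPF -0.30. Selplg in Hip CGF vs SPF became 0.020 when thinned and 0.0024 with the stricter gate, and Cst3 0.0027 with DESeq2. Tmem119 in PFC GF vs SPF became 0.070 without the filter, 0.094 thinned, 0.00079 with the stricter gate, 0.078 without nuclei of a second gate and 0.0073 with DESeq2. Gpr34 in PFC CGF vs SPF became -0.16 thinned and -0.27 with the stricter gate. With microglia taken from clusters, Fcrls in Hip CGF vs SPF became -0.052, Tmem119 and Olfml3 in PFC CGF vs SPF -0.00014 and 0.0040, Olfml3 in CGF Hip vs PFC -0.035, and in GF Hip vs PFC Selplg 0.21, Tmem119 0.16 (0.17 thinned), Siglech 0.039, Gpr34 0.23, Cst3 0.052 and Sparc 0.081. Fcrls against border macrophages became 0.056 without the filter and 0.81 in PFC alone. Leaving out 1 mouse turned the sign of 14 values that had not passed, with ranges of -0.15 to 0.088 (Selplg), -0.18 to 0.17 (Fcrls) and -0.20 to 0.091 (Cst3) in Hip CGF vs SPF, -0.36 to 0.45 (Tmem119), -0.65 to 0.090 (Fcrls) and -0.24 to 0.32 (Gpr34) in PFC CGF vs SPF, -0.31 to 0.15 and -0.55 to 0.27 for Tmem119 in PFC GF vs SPF and GF vs CGF, -0.50 to 0.10 (Tmem119) and -0.20 to 0.041 (Gpr34) in GF Hip vs PFC, -0.0048 to 0.53 (Selplg, SPF) and -0.58 to 0.076 (Cst3, CGF) in Hip vs PFC, -0.073 to 0.54 (Fcrls, region difference) and -0.16 to 0.16 (Fcrls, border macrophages). The causes were not tested. Without the filter the median of all genes moved to 0.32 in PFC GF vs SPF. Olfml3 was not tested in the thinned and stricter PFC fits, and it had 13 SPF and 9 CGF UMIs in PFC, which limits its precision.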
